A study of Mus musculus with 32 samples.

Results

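H2-Eb1, Cd74 and Ifi30 are 3 genes that act at different steps of MHC class II antigen presentation, and they were described here in the livers and spleens of nuclear transfer clones of the mouse. They were found by name among the 9026 named genes of the array and took up 5 of its 20794 rows: 1 row for H2-Eb1, 3 for Cd74 and 1 for Ifi30. The genes were chosen by their spleen ratios, which were already known, so their values in spleen are given as a description, with no test. Every member row had a value on all 32 arrays.

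The arrays fell into 4 groups of 8, the spleens and the livers of Dll1 clones and the spleens and the livers of wildtype clones, with 4 male mice of strain 129/SvJ aged 18 to 19 weeks per genotype. The same mice gave both organs, and each mouse was hybridised on 2 arrays per organ with the dyes exchanged. The second channel held pooled RNA from conventionally bred males of the same strain and age, labelled Dll1 heterozygotes for the Dll1 clones and wild type for the wildtype clones. Dll1 encodes a ligand of Notch receptors, the labels of the clones do not say which allele they carry, and no result here compares Dll1 clones with wildtype clones on 1 array. Because each pool was shared by all 8 arrays of a group, an error in the pool would shift all 4 mice alike. The protocol gives 6 animals per pool and the labels list 4. Nothing in the labels says how many nuclear donors or donor cell lines the clones came from, and p-values measure the spread between these mice only.

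MHC class II molecules are heterodimers of an alpha and a beta chain that carry peptides from the endocytic pathway to the cell surface, where CD4+ T cells read them. In the endoplasmic reticulum the new dimers bind the invariant chain, which fills the peptide groove and leads them to endosomes. There, proteases cut the invariant chain and the antigens, a thiol reductase opens disulfide bonds, and the H2-DM proteins exchange the last invariant chain fragment for peptide. In the spleen this machinery is made mainly by B cells, dendritic cells and macrophages. In the liver it belongs mainly to Kupffer and dendritic cells, while hepatocytes normally make little. H2-Eb1 encodes the beta chain of the class II molecule I-E, Cd74 the invariant chain, and Ifi30 the lysosomal thiol reductase GILT, which interferon-gamma induces.

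Class II genes are switched on together through a conserved promoter module, in which RFX proteins bind the X box, NF-Y binds the Y box and the coactivator CIITA joins them. The promoters of H2-Eb1 and Ifi30 are printed here because the members are set side by side as 1 pathway, and these sequences show which module letters each of them holds. They come from RefSeq (GRCm38.p6) and run 5′ to 3′ from 250 bases before to 50 bases after the gene start. Capitals mark the first letters of the X box, TAGCAAC, and the Y box letters, CTGATTGG, both searched on both strands. H2-Eb1 lies on the plus strand at chr17:34305617-34305916 and Ifi30 on the minus strand at chr8:70766614-70766913.
H2-Eb1: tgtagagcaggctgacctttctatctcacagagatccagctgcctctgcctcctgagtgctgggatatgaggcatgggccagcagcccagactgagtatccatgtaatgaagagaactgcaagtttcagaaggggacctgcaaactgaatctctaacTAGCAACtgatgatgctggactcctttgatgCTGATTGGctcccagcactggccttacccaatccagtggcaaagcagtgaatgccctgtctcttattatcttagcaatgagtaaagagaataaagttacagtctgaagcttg
Ifi30: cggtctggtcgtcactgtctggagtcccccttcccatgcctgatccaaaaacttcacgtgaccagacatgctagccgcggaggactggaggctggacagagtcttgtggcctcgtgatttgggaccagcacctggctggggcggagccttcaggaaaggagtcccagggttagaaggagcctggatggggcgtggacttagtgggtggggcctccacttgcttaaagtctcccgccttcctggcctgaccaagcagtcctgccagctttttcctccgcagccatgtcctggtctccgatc
In H2-Eb1 the X box letters stood at -93 to -87 and the Y box letters at -62 to -55. The X box letters occurred in 3.66% of 32851 mouse promoters of this length, the Y box letters in 4.1%, and both in 46 promoters, or 0.14%. CCAAT, the core that NF-Y reads, lies in reverse inside the Y box and occurred once more in H2-Eb1 at -35 to -31, and 37.4% of promoters hold it. Ifi30 matched neither box nor CCAAT in this window, and its single match was an E box, CACGTG, at -196 to -191, which 7.15% of promoters hold. Neither promoter matched the interferon-gamma activated site TTCNNNGAA, where N is any base, which 8.3% of promoters hold. The motif letters were picked after the promoters had been read, and a match is a string of letters, not a shown binding site.

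All values are log2 ratios of clone over pool, so 1 is a doubling, and they give no levels: whether a tissue expressed a gene strongly, or expressed the markers of its own cells, cannot be read from them. The direction is only likely, since it rests on the word order of the sample titles, and turning it would exchange every higher and lower. Each row was named by the array probe 11 places before it, a shift found from the agreement of probes of the same gene. With the 5 member rows left out, that agreement had a mean correlation of 0.055 over 2255 pairs, against 0.032 at the highest of 2000 other shifts. With each group centred on its mean the lead was narrow, at 0.038 over 2258 pairs against 0.036. Arrays spread more in spleen, with a median absolute deviation of 0.385 to 1.04 against 0.156 to 0.381 in liver. Dll1 itself had a ratio of 0.15 ± 0.67 in Dll1 spleens, 0.25 ± 0.75 in wildtype spleens, -0.075 ± 0.29 in Dll1 livers and -0.40 ± 0.42 in wildtype livers (SD, n = 4 mice each). These ratios do not check the genotype, because the pool of the Dll1 clones was also labelled Dll1 and the allele of the clones is not given.

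H2-Eb1 had the largest ratio of the 3 genes, in the spleens of Dll1 clones. The 4 Dll1 spleens had log2 ratios of 1.58, 1.47, 0.81 and 1.50, and the 4 wildtype spleens had 0.84, 0.035, 0.18 and 0.74. The mean was 1.34 ± 0.36 in Dll1 spleens, a ratio of 2.53-fold, and 0.45 ± 0.40 in wildtype spleens, a ratio of 1.37-fold (SD, n = 4 mice each). All Dll1 spleens lay above their pool, and 3 of them lay above every wildtype spleen. The exception was mouse 3, whose ratio fell inside the wildtype range, so the groups overlapped. The wildtype spleens split into a higher pair, mice 1 and 4, and a lower pair, mice 2 and 3, of which mouse 2 was near its pool.

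On single arrays, H2-Eb1 was above 0 on 8 of 8 arrays of Dll1 spleens, from 0.61 to 1.76, which holds for 0.342% of all features there. In wildtype spleens it was above 0 on 7 of 8 arrays, from -0.22 to 1.31. With the clone in Cy5 the means were 1.23 in Dll1 spleens and 0.63 in wildtype spleens. With the clone in Cy3 they were 1.45 in Dll1 spleens and 0.27 in wildtype spleens. The ratio was therefore positive with either dye in both genotypes, and the Dll1 mean was the higher with either dye.

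Cd74 was above its pool in all 8 spleens, with a tighter range in wildtype clones. Its log2 ratios were 0.62, 0.34, 0.10 and 0.45 in Dll1 spleens, and 0.52, 0.57, 0.48 and 0.49 in wildtype spleens. The means were 0.38 ± 0.22, or 1.30-fold, in Dll1 spleens and 0.52 ± 0.04, or 1.43-fold, in wildtype spleens (SD, n = 4 mice each). The Dll1 spleens reached from below to above the whole wildtype range, and mouse 3 was again the lowest. On single arrays Cd74 was above 0 on 7 of 8 in Dll1 spleens and on 8 of 8 in wildtype spleens, which holds for 0.554% of all features there. By dye, the Dll1 mean was 0.28 in Cy5 and 0.48 in Cy3, and the wildtype mean was 0.63 in Cy5 and 0.40 in Cy3. The order of the genotypes thus turned with the dye, Dll1 spleens being the lower in Cy5 and the higher in Cy3.

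Ifi30 was above its pool in all 8 spleens, with mice close together in both genotypes. Its log2 ratios were 0.58, 0.38, 0.42 and 0.40 in Dll1 spleens, and 0.62, 0.54, 0.64 and 0.51 in wildtype spleens. The means were 0.45 ± 0.09, or 1.36-fold, in Dll1 spleens and 0.58 ± 0.06, or 1.49-fold, in wildtype spleens (SD, n = 4 mice each). Dll1 mouse 1 lay inside the wildtype range and the other Dll1 mice below it. All 16 spleen arrays were above 0, from 0.28 to 0.67 in Dll1 spleens and from 0.27 to 0.82 in wildtype spleens. The Dll1 means were 0.46 in Cy5 and 0.43 in Cy3, and the wildtype means were 0.68 in Cy5 and 0.48 in Cy3.

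**Figure D1:**
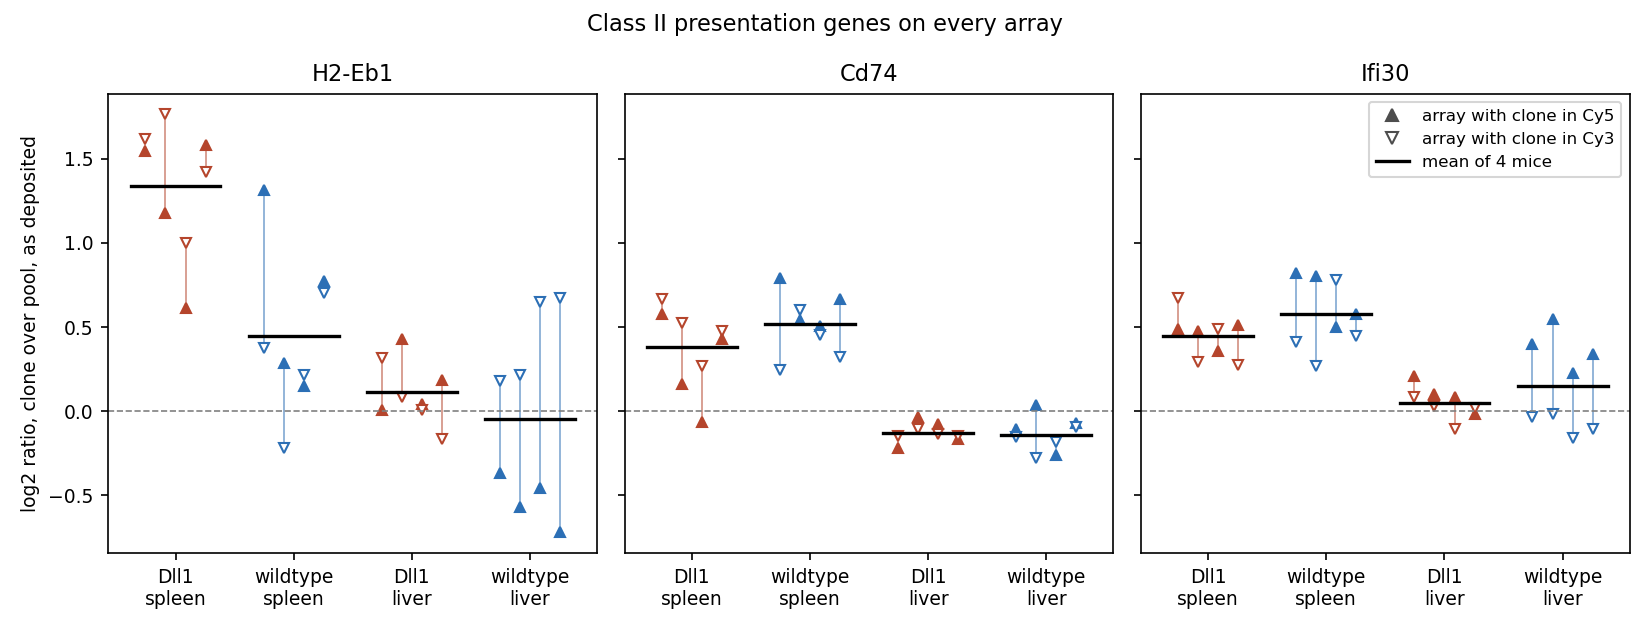
Log2 ratio of clone over pool (vertical axis) of H2-Eb1, Cd74 and Ifi30 on each array, by group (horizontal axis). Each vertical pair is 1 mouse, with its array in Cy5 (filled) and in Cy3 (open), and the bar is the mean of 4 mice, which for H2-Eb1 is 1.34 in Dll1 spleens and 0.45 in wildtype spleens. The Ifi30 arrays of wildtype liver lie above 0 in Cy5 and below 0 in Cy3.

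The 3 genes thus had in common a positive ratio in each of the 8 spleens. Among all features, 8.17% were above 0 in 4 of 4 Dll1 spleens and 8.8% in 4 of 4 wildtype spleens. Since the genes were picked for these values, nothing is read from their count against these shares. The difference of Dll1 minus wildtype spleens was 0.89 for H2-Eb1, -0.14 for Cd74 and -0.13 for Ifi30, with overlapping mice for each gene. Groups did not overlap for 3.33% of all features in spleen and for 3.34% in liver, where the members overlapped too. As deposited, H2-Eb1 thus had the larger mean in Dll1 clones, and Cd74 and Ifi30 in wildtype clones. The direction of the arrays with the clone in Cy3 is not settled, and with their sign turned the differences would be -0.29 for H2-Eb1, -0.22 for Cd74 and -0.086 for Ifi30, all of 1 sign. In whole spleens, fewer cells of a type and less RNA per cell cannot be told apart.

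The order of the 3 genes also differed between the genotypes. In Dll1 spleens it ran H2-Eb1, Ifi30, Cd74, and H2-Eb1 lay beyond the spread of both others, its lowest mouse at 0.81 against a highest of 0.62 for Cd74 and 0.58 for Ifi30. Ifi30 and Cd74 overlapped there. In wildtype spleens it ran Ifi30, Cd74, H2-Eb1, with ranges that overlapped between each pair of neighbours. These are differences between ratios, not between the levels of the genes.

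Mouse 3 of the Dll1 clones was the lowest Dll1 spleen for H2-Eb1 and Cd74, and 1 of its spleen arrays was the least complete of the series. Its 2 spleen arrays lacked 996 and 2966 of 20794 values and had spreads of 0.667 and 1.04, the highest spread of any array. The remaining Dll1 spleen arrays lacked 390 to 1712 values. The part of array quality in its lower ratios was not tested. Without this mouse the Dll1 spleen mean was 1.52 for H2-Eb1.

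In liver, whose values did not enter the choice of the genes, no ratio of the 3 genes passed at an adjusted p of 0.05 by limma. The background there was low: 0% of 17020 features were called in Dll1 livers (1559 had an unadjusted p under 0.05), 0.0764% in wildtype livers and 0% for the difference between the genotypes (835 had an unadjusted p under 0.05). The 13 calls in wildtype livers were lost without wildtype mouse 1, 2 or 3, and their number was 2 without wildtype mouse 4 and 2 without Dll1 mouse 1. H2-Eb1 had log2 ratios of 0.16, 0.26, 0.024 and 0.0095 in Dll1 livers, and -0.093, -0.18, 0.096 and -0.023 in wildtype livers. The means were 0.11 ± 0.12 in Dll1 livers (limma adjusted p = 0.555, above 0 in 4 of 4 mice, as 5.89% of features were) and -0.049 ± 0.12 in wildtype livers (adjusted p = 0.859, below 0 in 3 of 4 mice; SD, n = 4 mice each). The difference of Dll1 minus wildtype livers was 0.16 (SE 0.08, 95% interval -0.02 to 0.34, limma adjusted p = 0.935).

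Cd74 lay slightly below its pool in all 8 livers. Its log2 ratios were -0.18, -0.070, -0.11 and -0.16 in Dll1 livers, and -0.13, -0.12, -0.22 and -0.082 in wildtype livers. The means were -0.13 ± 0.05 in Dll1 livers (limma adjusted p = 0.479) and -0.14 ± 0.06 in wildtype livers (adjusted p = 0.395; SD, n = 4 mice each). Below 0 in 4 of 4 mice were 9.82% of all features in Dll1 livers and 9% in wildtype livers. The genotypes differed by 0.0098 (SE 0.05, 95% interval -0.11 to 0.13, adjusted p = 0.986).

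Ifi30 was close to its pool in liver. Its log2 ratios were 0.15, 0.068, -0.0095 and 0.0025 in Dll1 livers, and 0.18, 0.26, 0.034 and 0.12 in wildtype livers. The means were 0.052 ± 0.07 in Dll1 livers (limma adjusted p = 0.712, above 0 in 3 of 4 mice) and 0.15 ± 0.10 in wildtype livers (adjusted p = 0.437, above 0 in 4 of 4 mice, as 11.6% of features were; SD, n = 4 mice each). The difference of Dll1 minus wildtype livers was -0.096 (SE 0.07, 95% interval -0.24 to 0.05, adjusted p = 0.935).

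Each of the 8 mice had a higher ratio in spleen than in liver for each of the 3 genes. Spleen minus liver was 1.23 ± 0.32 in Dll1 clones and 0.50 ± 0.41 in wildtype clones for H2-Eb1. It was 0.51 ± 0.26 in Dll1 clones and 0.65 ± 0.06 in wildtype clones for Cd74. It was 0.39 ± 0.06 in Dll1 clones and 0.43 ± 0.14 in wildtype clones for Ifi30 (SD, n = 4 mice each). Across the 4 groups, H2-Eb1 ran from Dll1 spleen through wildtype spleen and Dll1 liver to wildtype liver. Cd74 and Ifi30 ran from wildtype spleen to Dll1 spleen, with both livers below all spleens. Among neighbours in these orders, the mice overlapped in each step except from Dll1 spleen to the next liver for Cd74 and Ifi30. No test was made, because the spleen values entered the choice of the genes.

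The 3 probes of Cd74 were alike in spleen and unlike in liver. In Dll1 spleens they had means of 0.38 ± 0.25, 0.33 ± 0.29 and 0.43 ± 0.18 for probes 6360, 6906 and 16979, and in wildtype spleens 0.42 ± 0.11, 0.56 ± 0.16 and 0.57 ± 0.05 (SD, n = 4 mice each). In Dll1 livers probe 16979 stood at -0.42 ± 0.15, against 0.063 ± 0.11 and -0.028 ± 0.04 for the other probes. In wildtype livers it stood at -0.47 ± 0.18, against -0.036 ± 0.05 and 0.094 ± 0.05. The negative liver mean of Cd74 thus rested mainly on 1 of 3 probes in both genotypes. In wildtype livers the probes also differed by dye. Probe 6906 was at 0.41 in Cy5 and -0.23 in Cy3, and probe 6360 at 0.057 in Cy5 and -0.13 in Cy3, so their means averaged opposite values. Probe 16979 was at -0.77 in Cy5 and -0.17 in Cy3 there, and at -0.43 in Cy5 and -0.41 in Cy3 in Dll1 livers. Tested row by row with limma over 20724 rows, probe 16979 had an adjusted p of 0.291 in Dll1 livers and 0.077 in wildtype livers, where 0.0917% of rows were called. All 3 probes carry the same transcript accession, and where they lie in it was not analysed here. Pairs of probes correlated at 0.357 to 0.663 over the 8 spleens and at -0.482 to -0.00834 over the 8 livers, each genotype centred on its mean.

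**Figure D2:**
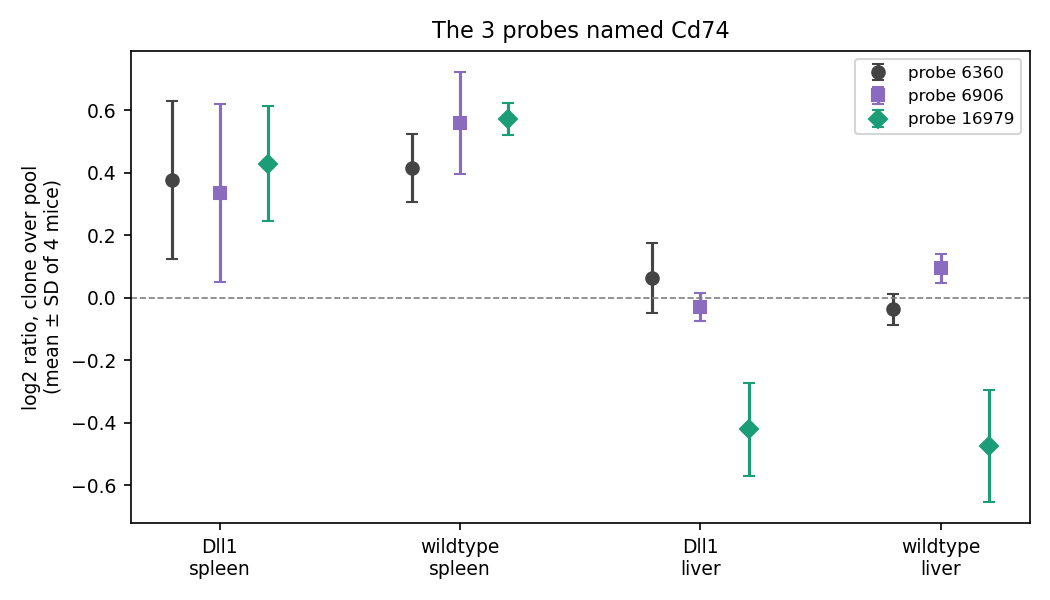
Log2 ratio of clone over pool (vertical axis, mean ± SD of 4 mice) for the 3 probes named Cd74, by group (horizontal axis). All 3 are above 0 in both spleens, while probe 16979 lies apart in both livers, at -0.42 in Dll1 clones and -0.47 in wildtype clones.

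The values were also compared between the dyes. Over all features the mean ratios of the Cy5 and the Cy3 arrays of a group correlated at -0.298 in Dll1 spleens, -0.385 in wildtype spleens, -0.251 in Dll1 livers and -0.709 in wildtype livers. A negative value means that probes high with 1 dye tended to be low with the other, so it is not settled that the Cy3 arrays had been turned to the same direction. H2-Eb1 in wildtype livers followed that pattern, at -0.53 in Cy5 with all 4 arrays below 0 and 0.43 in Cy3 with all 4 above. Ifi30 in wildtype livers had 0.38 in Cy5, all 4 above 0, and -0.08 in Cy3, all 4 below. The small liver means of these genes in wildtype clones were therefore averages of opposite values.

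In spleen the mean of each member had the same sign in both dyes in both genotypes. The genes were chosen by their spleen ratios, and such a choice favours genes with the same sign in both dyes. Nothing is therefore read from this agreement. If the Cy3 arrays were turned, the spleen means would be -0.11 for H2-Eb1, -0.10 for Cd74 and 0.013 for Ifi30 in Dll1 clones. They would be 0.18 for H2-Eb1, 0.11 for Cd74 and 0.098 for Ifi30 in wildtype clones. All spleen ratios, orders and differences of the members, and those of the other genes and lists, are thus tied to the reading as deposited. In wildtype livers the turned means would be -0.48 for H2-Eb1 (limma adjusted p = 0.000676) and 0.23 for Ifi30 (adjusted p = 0.000853), when 9188 of all features would be called.

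**Figure D3:**
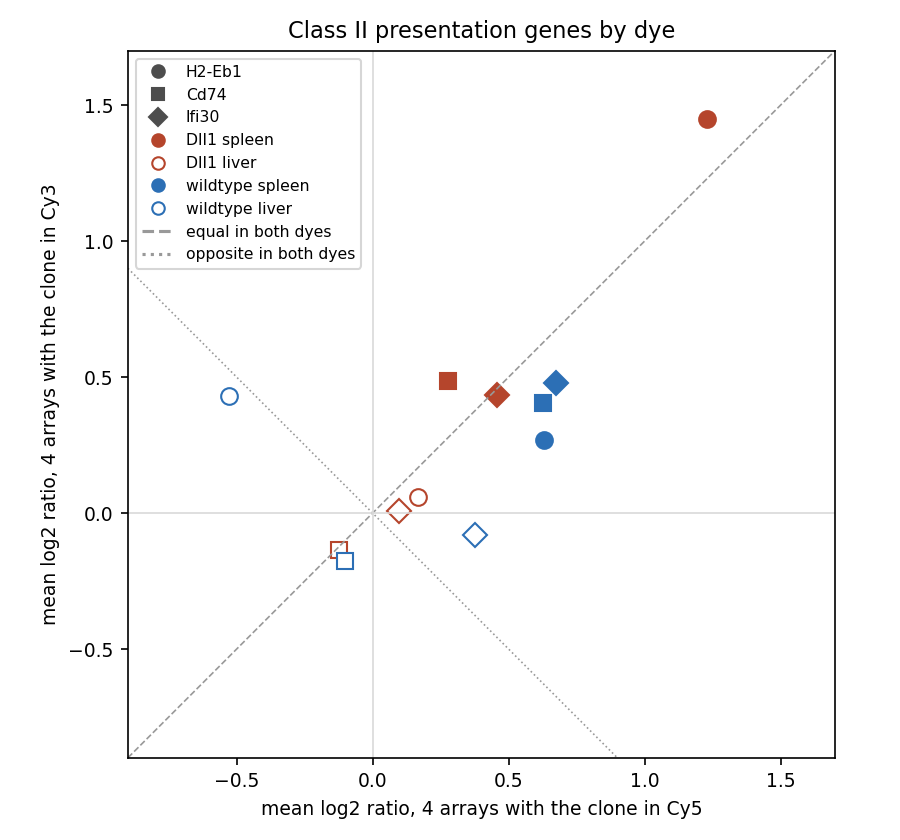
Mean log2 ratio of the 4 arrays with the clone in Cy3 (vertical axis) against the 4 arrays with the clone in Cy5 (horizontal axis), for each gene (shape) in each group (colour and fill). All spleen points are above 0 in both dyes, with H2-Eb1 of Dll1 spleens at 1.23 and 1.45, while H2-Eb1 of wildtype livers lies near the dotted line of opposite values, at -0.53 and 0.43.

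Over the mice, the 3 genes varied together only loosely. With each genotype centred on its mean, over the 8 spleens H2-Eb1 and Cd74 correlated at 0.546, Cd74 and Ifi30 at 0.471, and H2-Eb1 and Ifi30 at 0.138. Over the 8 livers the values were -0.177, 0.204 and -0.268 for the same pairs. All arrays of a genotype share a pool, so these are descriptions of 8 mice. The genes whose spleen ratios were most like the mean of the 3, among 6760 genes with all arrays, were Olfr56 (Pearson r = 0.98), Sumo2 (0.963), Clu (0.963), Mlxip (0.958) and Dgka (0.949). In liver they were Fes (0.984), Sra1 (0.976), Tcp10a (0.971), Bop1 (0.965) and Chid1 (0.962), among 8851 genes. The lists share no gene, and with 8 mice and this many genes no further meaning is read from them.

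Of the wider class II pathway, 24 of 32 listed genes were on the array, and none passed by limma in either organ. At an unadjusted p under 0.05 there were 5 of the 24 in Dll1 spleens, 1 in wildtype spleens, 0 in Dll1 livers and 1 in wildtype livers. By limma 0% of 16956 features were called in Dll1 spleens, in wildtype spleens and for their difference, while 1698 (10%), 579 (3.41%) and 780 (4.6%) had an unadjusted p under 0.05. In Dll1 spleens 14 of the 24 had a mean above 0 and 10 below, with a median of 0.068 against 0.0061 over all features, of which 50.8% had a mean above 0. In wildtype spleens 17 were above and 7 below, with a median of 0.023 against 0.011, where 52.8% of features had a mean above 0. In Dll1 livers 9 were above and 15 below, with a median of -0.022, where 48.2% of features had a mean above 0. Wildtype livers also had 9 above and 15 below, with a median of -0.016, where 54.8% of features had a mean above 0. H2-Aa, H2-Ea, H2-Eb2, H2-DMb2, H2-Ob, Ciita, Rfxap and Mif were not found among the named rows and were not analysed here. They include H2-Ea, the alpha chain that pairs with H2-Eb1, and Ciita, the coactivator. Whether mice of this strain make H2-Ea, and with it the I-E molecule, was not analysed here, so the H2-Eb1 ratios concern its RNA only. The Cy5 and Cy3 means had opposite signs for 10 of the 24 genes in Dll1 spleens and 19 in wildtype spleens, as they did for 60.3% of all features in Dll1 spleens and 67.2% in wildtype spleens. If the Cy3 arrays were turned, 15 of the 24 would be above 0 in Dll1 spleens (median 0.057) and 18 in wildtype spleens (median 0.16). Of all features, 49% would then be above 0 in Dll1 spleens and 57.2% in wildtype spleens. The number past the threshold would be 1 in Dll1 spleens, 0 in wildtype spleens, 2 in Dll1 livers and 14 in wildtype livers. Over all features it would be 735 in Dll1 spleens and 140 in wildtype spleens, of 16956. In livers it would be 788 in Dll1 clones and 9188 in wildtype clones, of 17020. Most features would thus be called in wildtype livers, and the 14 are not read as a result about the pathway.

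Among the class II chains, H2-Ab1, the beta chain of the other class II molecule, I-A, lay on the other side of 0 from H2-Eb1 in Dll1 spleens. It had a log2 ratio of -0.16 (SE 0.13, limma adjusted p = 0.668, below 0 in 4 of 4 mice) in Dll1 spleens and 0.19 (SE 0.13, adjusted p = 1, above 0 in 3 of 4) in wildtype spleens. Its lowest and highest Dll1 spleens were -0.33 and -0.034, while those of H2-Eb1 were 0.81 and 1.58. As deposited, H2-Ab1 was below 0 and H2-Eb1 above 0 in each of the 4 mice. With the Cy3 arrays turned both would be at -0.11 in Dll1 spleens, so the opposite signs hold only for the deposited direction. In the livers H2-Ab1 was at -0.010 in Dll1 clones and 0.030 in wildtype clones.

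The ratios of the H2-DM chains were small in spleen. H2-DMa and H2-DMb1, the chains of the peptide exchange factor, had ratios of -0.065 and 0.069 in Dll1 spleens, and 0.17 and 0.21 in wildtype spleens. H2-DMb1 in wildtype spleens was at -0.27 in Cy5 and 0.70 in Cy3. H2-Oa, a chain of the protein that restrains H2-DM, was at -0.44 in Dll1 spleens (below 0 in 3 of 4 mice) and -0.060 in wildtype spleens. None of the 3 was called, with limma adjusted p-values of 0.54 to 0.902 in Dll1 spleens and 1 in wildtype spleens.

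Of the endosomal proteases, 5 of 7 had a mean above 0 in each spleen group, where 50.8% of all features did in Dll1 spleens and 52.8% in wildtype spleens. By dye, 3 of the 7 were above 0 in Cy5 and 6 in Cy3 in Dll1 spleens, and 4 in Cy5 and 3 in Cy3 in wildtype spleens. With the Cy3 arrays turned, 4 of the 7 would be above 0 in each group. Lgmn, an asparaginyl endopeptidase that begins the cutting of antigens and invariant chain, was at 0.43 (SE 0.12, limma adjusted p = 0.407, 4 of 4 mice above 0) in Dll1 spleens and 0.026 (SE 0.12, adjusted p = 1) in wildtype spleens. Ctss, cathepsin S, which makes the late cuts in the invariant chain of B cells and dendritic cells, was at 0.25 (SE 0.14, adjusted p = 0.567) in Dll1 spleens and 0.49 (SE 0.14, adjusted p = 1, 4 of 4 mice above 0) in wildtype spleens. Ctsz, cathepsin Z, was at 0.42 in Dll1 spleens and 0.32 in wildtype spleens, above 0 in every mouse. In wildtype spleens its mean changed sign with the dye, at 0.87 in Cy5 and -0.23 in Cy3, with 5 of 8 arrays above 0. Ctsb, cathepsin B, was at -0.26 in Dll1 spleens and -0.22 in wildtype spleens. None of these ratios passed the test.

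Among the factors of the promoter module, the X box protein Rfx5 was at 0.0067 in Dll1 spleens and 0.17 in wildtype spleens, and Rfxank, another subunit of RFX, was at -0.14 in Dll1 spleens and 0.0052 in wildtype spleens. The NF-Y subunits Nfya and Nfyb were at 0.25 and 0.26 in Dll1 spleens and at 0.0036 and 0.037 in wildtype spleens. The Dll1 spleen mean of Nfya averaged opposite values, 0.84 in Cy5 and -0.33 in Cy3, with 4 of 8 arrays above 0. The third subunit, Nfyc, was at -0.33 in Dll1 spleens and 0.059 in wildtype spleens. Creb1, which binds the neighbouring X2 box, averaged 2.15 ± 2.28 in Dll1 spleens and 0.22 ± 0.45 in wildtype spleens (SD, n = 4 mice each), a spread as large as its mean. Marchf8, a ubiquitin ligase that can send class II molecules to lysosomes, was at -0.52 (SE 0.17, limma adjusted p = 0.448) in Dll1 spleens and -0.30 (SE 0.17, adjusted p = 1, below 0 in 4 of 4 mice) in wildtype spleens. Cd4, the coreceptor that binds class II molecules, was at 0.26 in Dll1 spleens, above 0 in 4 of 4 mice, and -0.036 in wildtype spleens.

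**Figure D4:**
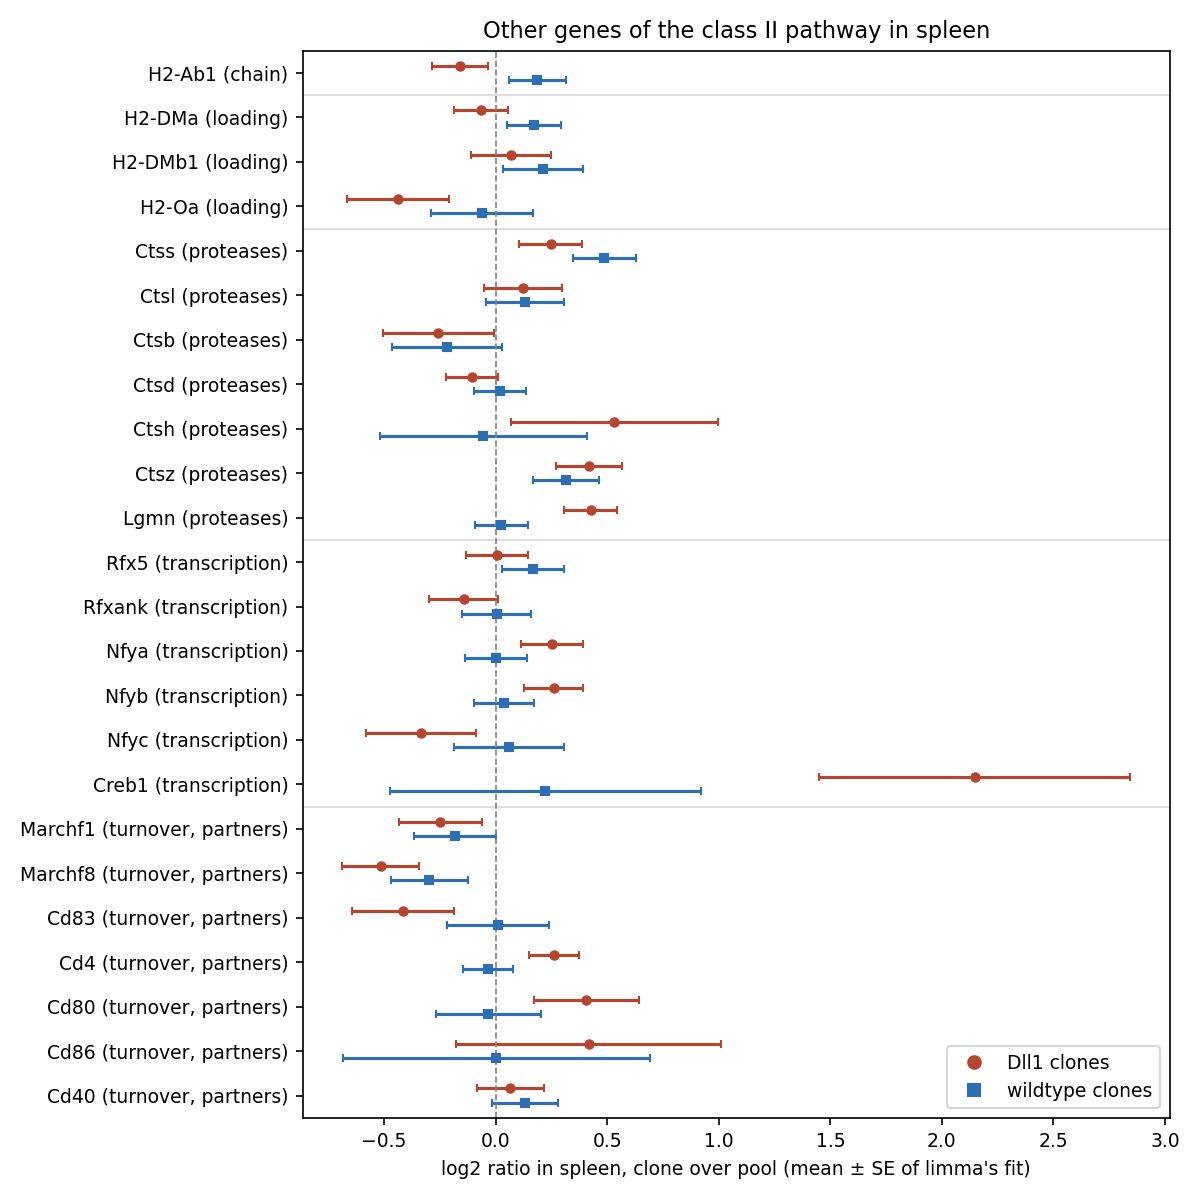
Log2 ratio of clone over pool in spleen (horizontal axis, limma mean ± SE, 4 mice per genotype, 3 for Cd86 in wildtype clones) for the 24 other class II pathway genes on the array (vertical axis), ordered by role. H2-Ab1 lies at -0.16 in Dll1 clones and 0.19 in wildtype clones, and the widest bars are those of Creb1, Cd86 and Ctsh.

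The cells that make class II molecules were followed by their markers. Of 11 B cell markers, 8 were above 0 in Dll1 spleens (median 0.12) and 10 in wildtype spleens (median 0.18), and limma called 0 in either, with 1 in Dll1 spleens and 2 in wildtype spleens at an unadjusted p under 0.05, against 10% and 3.41% of all features. A mean above 0 was held by 50.8% of all features in Dll1 spleens and 52.8% in wildtype spleens. On turning the Cy3 arrays, 6 of 11 would be above 0 in Dll1 spleens and 7 in wildtype spleens. Ms4a1, which encodes CD20, was at 0.44 (SE 0.11, limma adjusted p = 0.407) in Dll1 spleens and 0.71 (SE 0.11, adjusted p = 0.804) in wildtype spleens, above 0 in every mouse. Of 10 dendritic cell and macrophage markers, 5 were above 0 in Dll1 spleens (median 0.033) and 10 in wildtype spleens (median 0.15). Limma called 0 in either, with 3 in Dll1 spleens and 1 in wildtype spleens at an unadjusted p under 0.05. On turning the Cy3 arrays, 6 would be above 0 in Dll1 spleens and 7 in wildtype spleens. Lyz2, lysozyme, was at 0.31 in Dll1 spleens and 0.76 in wildtype spleens. Clec9a was at -0.43 (SE 0.63, 3 mice) in Dll1 spleens and 0.32 (SE 0.55) in wildtype spleens. The medians of the B cell list by mouse were 0.25, 0.058, 0.027 and 0.12 in Dll1 spleens, and 0.29, 0.17, 0.29 and 0.15 in wildtype spleens.

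Erythroid markers had negative medians in spleen as deposited, -0.58 in Dll1 spleens with 1 of 14 above 0 and -0.42 in wildtype spleens with 2 of 14 above 0. They were negative in both dyes, at -0.44 in Cy5 and -0.58 in Cy3 in Dll1 spleens, and at -0.27 in Cy5 and -0.45 in Cy3 in wildtype spleens. After turning the Cy3 arrays, the medians would be 0.073 in Dll1 spleens, with 11 of 14 above 0, and 0.14 in wildtype spleens, with 10 of 14. By mouse they were -1.25, -0.76, -0.056 and -0.18 in Dll1 spleens, and -0.45, -0.65, -0.35 and -0.34 in wildtype spleens. Neutrophil markers had a median of -0.36 in Dll1 spleens, with 3 of 11 above 0, and 0.044 in wildtype spleens, with 7 of 11. By dye they had -0.28 in Cy5 and -0.33 in Cy3 in Dll1 spleens, and 0.030 in Cy5 and -0.0023 in Cy3 in wildtype spleens. After turning the Cy3 arrays, the neutrophil medians would be 0.038 in Dll1 spleens, with 6 of 11 above 0, and -0.016 in wildtype spleens, with 5 of 11. Of all features as deposited, 50.8% in Dll1 spleens and 52.8% in wildtype spleens had a mean above 0. In liver the erythroid list medians by mouse were within -0.032 to 0.00052 in Dll1 clones and -0.037 to 0.051 in wildtype clones. These medians do not show Hba-a1, the 1 listed gene that limma called there. It was at -0.56 (SE 0.07, limma adjusted p = 0.039) in wildtype livers and -0.33 (SE 0.07, adjusted p = 0.429) in Dll1 livers. All calls in wildtype livers were lost without wildtype mouse 1, 2 or 3. Ratios compare equal amounts of RNA, and the part of these cell type lists in the ratios of H2-Eb1, Cd74 and Ifi30 was not tested.

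**Figure D5:**
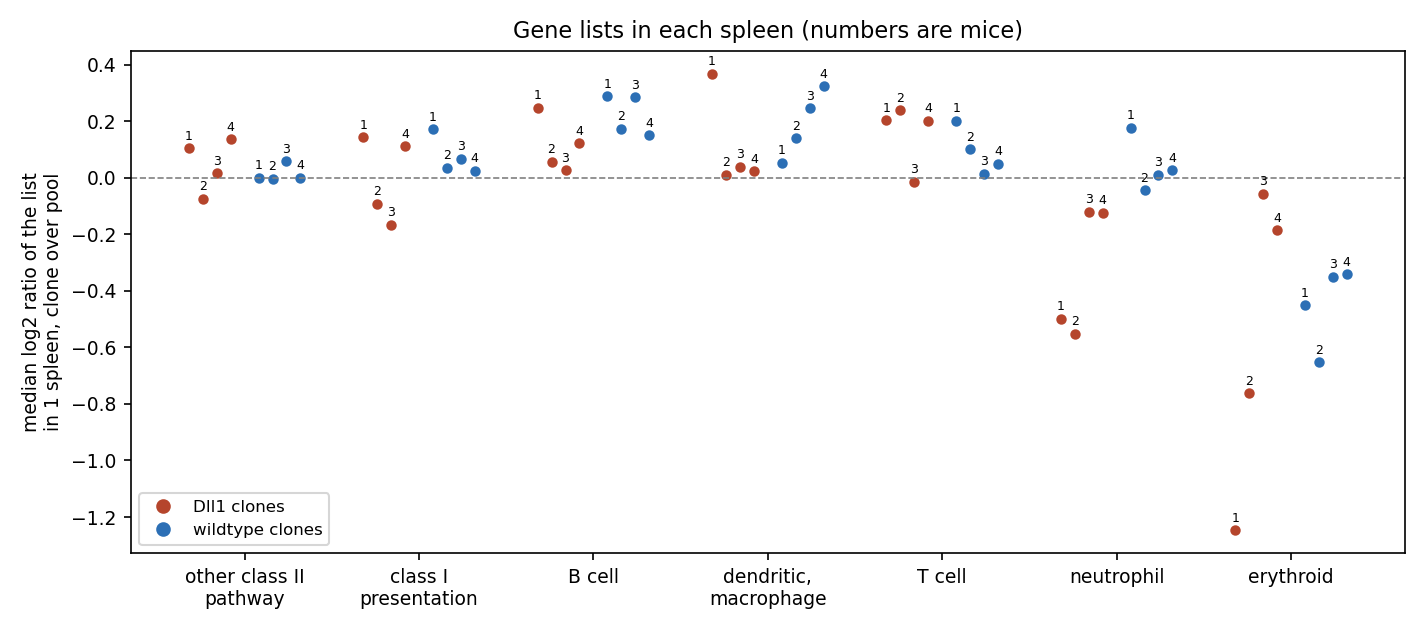
Median log2 ratio of each gene list in each spleen (vertical axis), by list (horizontal axis), with Dll1 clones left of wildtype clones and each point marked with its mouse. The erythroid medians reach -1.25 in mouse 1 of the Dll1 clones, while the B cell medians are all above 0.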

How the data were processed

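The deposited table held 1 log2 ratio per row and array of 2-colour arrays. How the authors normalized, filtered and scanned is not stated in the sources used here, and the base of the logarithm was inferred from the values. Per the labels' protocols, RNA was isolated with RNeasy kits and labelled indirectly with Cy3 and Cy5. Values above 9 in size, 1183 in all, were set to missing, arrays were otherwise used as deposited, and dye-swapped arrays were averaged per mouse. Rows of 1 gene were averaged. The platform table named 12771 probes, all with 1 symbol, all matched to a current RefSeq symbol by gene number, and 12760 rows were named at the shift of 11. For each organ, limma 3.58.1 in R 4.3.3 fitted a mean per genotype to the 8 mice, with at least 3 mice per genotype, and p-values were adjusted by Benjamini-Hochberg over all features (named genes and unnamed rows). The fit was tested on simulated data. The number of arrays limits the precision, and signal over background was not analysed here.

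The members and gene lists were chosen with earlier results of these data known. Genes were named if they were members, listed pathway genes, the 3 largest ratios of another list in a group, or the 5 genes most alike in an organ. Alternatives were other readings of the constants, dyes, names and scaling, mice left out, and random mouse blocks.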

Additional observations from a re-analysis of the deposited data

Results flagged for a closer look

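In groups of 4 mice, a mouse far from the others was looked for in 111 sets of values of the members, the pathway genes and Dll1. Chance gives about 1 in 20, and 6 were found in the 111 sets. This is close to the share that chance gives, so nothing is read from the 6 mice listed here. H2-Eb1 in the spleen of Dll1 mouse 3 was at 0.806, against 1.47 in the nearest mouse. Dll1 in the liver of Dll1 mouse 3 was at -0.51, against 0.021 in the nearest mouse. H2-DMb1 in wildtype liver was at 0.38 in mouse 1, against -0.029 in the nearest. Ctss in wildtype liver was at -0.13 in mouse 3, against 0 in the nearest. In Dll1 livers, Ctsd was at 0.17 in mouse 4, against 0.0047 in the nearest, and Ctsz was at -0.16 in mouse 2, against -0.028 in the nearest.

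Cd74 was above 0 in every spleen and below 0 in every liver. Its spleen minus liver difference was 0.51 in Dll1 clones, with 0.38 in spleen and -0.13 in liver, and 0.65 in wildtype clones, with 0.52 in spleen and -0.14 in liver. Ctsz in Dll1 clones likewise was above 0 in every spleen and below 0 in every liver, a difference of 0.475. The liver means of Cd74 rest on probe 16979, at -0.42 in Dll1 livers and -0.47 in wildtype livers. The other probes, 6360 and 6906, were at 0.063 and -0.028 in Dll1 livers, and -0.036 and 0.094 in wildtype livers. Cd74 was chosen by its spleen ratios, so its spleen side was known in advance and nothing is read from its being flagged. The share of all features with such opposite signs was not counted, and these differences between the organs were not tested.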

How the results depend on the processing

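With the Cy3 arrays turned, features past the threshold were 788 in Dll1 livers, 9188 in wildtype livers, 6892 for the liver difference, 735 in Dll1 spleens and 140 in wildtype spleens. H2-Eb1 was at -0.11 in Dll1 spleens, -0.29 for the spleen difference, -0.48 in wildtype livers and 0.53 for the liver difference (adjusted p = 0.00496). Cd74 was at -0.10 in Dll1 spleens, 0.11 in wildtype spleens, 0.0054 in Dll1 livers, 0.038 in wildtype livers and -0.033 for the liver difference. Ifi30 was at 0.013 in Dll1 spleens, 0.098 in wildtype spleens, 0.23 in wildtype livers and -0.18 for the liver difference (adjusted p = 0.0212). With Cy5 arrays alone, H2-Eb1 was at -0.53 in wildtype livers (adjusted p = 0.00158) and 0.69 for the liver difference, Cd74 at 0.63 in wildtype spleens and -0.023 for the liver difference, and Ifi30 at 0.68 in wildtype spleens and 0.38 in wildtype livers (adjusted p = 0.00245). With Cy3 arrays alone, H2-Eb1 was at 0.43 in wildtype livers (adjusted p = 0.00844) and -0.37 for the liver difference. Cd74 was then at 0.40 in wildtype spleens and -0.18 in wildtype livers (adjusted p = 0.0197), and Ifi30 at 0.48 in wildtype spleens, -0.08 in wildtype livers and 0.088 for the liver difference.

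With rows named by the probe of the same number, other probes stand for the members. H2-Eb1 was then at -0.12, -0.068 and -0.052 in Dll1 spleens, wildtype spleens and their difference, and at -0.031, 0.023 and -0.054 in Dll1 livers, wildtype livers and their difference. Cd74 was at 0.16 in Dll1 spleens, 0.086 in wildtype spleens and -0.0100 for the liver difference, and Ifi30 at -0.10 in Dll1 spleens, 0.011 in wildtype spleens, -0.098 in Dll1 livers and -0.031 in wildtype livers. With arrays scaled to one spread, H2-Eb1 was at 0.83 in Dll1 spleens, Cd74 at 0.39 in wildtype spleens and -0.085 for the liver difference, and Ifi30 at 0.26 in Dll1 spleens and 0.43 in wildtype spleens. Leaving out each mouse in turn moved the Cd74 liver difference between -0.018 and 0.029, negative without Dll1 mouse 2 or wildtype mouse 3.

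The 13 calls in wildtype livers became 0 with constants kept, 0 with scaling, 0 with both organs in 1 fit and 53 on single arrays with a dye term. Leaving out each mouse gave 0 to 19 calls there, 0 to 1 in Dll1 livers (1 without Dll1 mouse 4) and 0 to 1 in Dll1 spleens (1 without Dll1 mouse 1). Both organs in 1 fit gave 969 calls in Dll1 spleens, 56 in wildtype spleens and 58 for their difference, and single arrays gave 12 in Dll1 livers, 1 in Dll1 spleens and 8 in wildtype spleens. The causes were not tested. The replicate numbers of the titles did not pair the samples (correlations of -0.0166 to 0.11), and with the replicate block 0 features passed for either difference. In the 15 settings other than turning and renaming, all 6 spleen means of the members were above 0, H2-Eb1 in Dll1 spleens between 0.83 and 1.52. Several of these settings cannot change a member's mean, such as leaving out a mouse of the other genotype or keeping values above 9. The genes were also chosen by these spleen ratios, so nothing is read from this. Of 156 alternative values of the members in liver, 131 kept direction and call, 17 changed direction, and 8 kept direction and newly passed the threshold. No member passed in liver in the main setting, so a kept call means that none was made.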

Other observations

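Class I antigen presentation, which shows peptides from the cytosol to CD8+ T cells, was seen alongside in the spleens. Of 13 tested genes, 10 had a mean above 0 in Dll1 spleens (median 0.097) and 9 in wildtype spleens (median 0.077), and limma called 0, with 1 in Dll1 spleens and 1 in wildtype spleens at an unadjusted p under 0.05. Of all features, 50.8% in Dll1 spleens and 52.8% in wildtype spleens had a mean above 0, and 10% and 3.41% had such a p. With the Cy3 arrays turned, 4 of the 13 would be above 0 in Dll1 spleens and 9 in wildtype spleens. Tap1, a subunit of the peptide transporter, was at -1.04 (SE 0.29, adjusted p = 0.407, below 0 in 4 of 4 mice) in Dll1 spleens and -0.30 (SE 0.29, adjusted p = 1) in wildtype spleens. By mouse its Dll1 spleens were at -2.25, -1.1, -0.27 and -0.52, close to Hba-a1 at -2.22, -1.1, -0.23 and -0.66. The reason was not tested. The next largest of the list in Dll1 spleens went the other way, H2-T23 at 0.72 (SE 0.57, above 0 in 2 of 4 mice) and H2-M3 at 0.45 (SE 0.20, above 0 in 4 of 4). In liver Tap1 was at -0.25 (SE 0.06, adjusted p = 0.429) in Dll1 clones and -0.30 (SE 0.06, adjusted p = 0.261) in wildtype clones, below 0 in every mouse. B2m, the shared light chain of class I molecules, was at 0.45 (SE 0.14, adjusted p = 1) in wildtype spleens, above 0 in 4 of 4 mice. In the livers it was at -0.22 (SE 0.07, adjusted p = 0.479) in Dll1 clones and -0.38 (SE 0.07, adjusted p = 0.161) in wildtype clones.

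Of 10 targets or parts of the interferon-gamma response, 6 were above 0 in Dll1 spleens (median 0.10) and 7 in wildtype spleens (median 0.065), with 0 called by limma. The count at an unadjusted p under 0.05 was 2 in Dll1 spleens and 0 in wildtype spleens, against 10% and 3.41% of all features. A mean above 0 was held by 50.8% of all features in Dll1 spleens and 52.8% in wildtype spleens. By dye, 8 of the 10 were above 0 in Cy5 and 3 in Cy3 in Dll1 spleens. In wildtype spleens 9 were above 0 in Cy5 and 1 in Cy3. Igtp, an interferon-gamma induced GTPase, was at -0.81 (SE 0.23, adjusted p = 0.407, below 0 in 4 of 4 mice) in Dll1 spleens and -0.24 (SE 0.23, adjusted p = 1) in wildtype spleens. The receptor chain Ifngr1 was at 0.31 (SE 0.12, adjusted p = 0.474) in Dll1 spleens and 0.26 (SE 0.12, adjusted p = 1) in wildtype spleens, above 0 in every mouse, though its Cy3 means were -0.0090 in Dll1 spleens and -0.025 in wildtype spleens. Of 11 T cell markers, 8 were above 0 in Dll1 spleens (median 0.13) and 8 in wildtype spleens (median 0.13), against 50.8% and 52.8% of all features. Limma called 0 of them in either. With the Cy3 arrays turned, 8 would be above 0 in Dll1 spleens and 9 in wildtype spleens. Cd8b1, a chain of CD8, was at 0.53 (SE 0.16, adjusted p = 0.413) in Dll1 spleens, where Cd3e and Cd3d were at -0.33 (SE 0.41) and -0.305 (SE 0.18). In wildtype spleens the costimulatory receptor Cd28 was at 0.60 (SE 0.12, adjusted p = 1) and Thy1 at -0.60 (SE 0.25).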
